A study of Rattus norvegicus with 24 samples.

Results

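Resistance exercise loads a muscle and also changes the supply of blood vessels around its fibres, and the transcripts described here belong to that vascular side. They are the growth factor genes Vegfa and Vegfb, their receptors Kdr and Flt1, the angiopoietin Angpt1 and its receptor Tek, and the endothelial adhesion genes Cdh5 and Pecam1. These 8 genes were chosen by symbol, and every transcript carrying a symbol was summed to give 1 value per gene. The table held 7 of the 8, through 12 of its 20027 transcripts, while Pecam1 was not analysed here. The 7 genes all passed the filter on low values and were tested among 11196 genes. Vegfa rose after 2, 10, 20 and 30 days of training, Cdh5 rose from 10 days on, Vegfb passed the test at 20 days, and Kdr was lower than in controls at 2 days. Flt1, Angpt1 and Tek passed it at no time point. These calls set trained muscles against all contralateral muscles. When each trained muscle was instead set against that of its own animal, Vegfa and Kdr at 2 days and Cdh5 at 30 days did not pass (adjusted p = 0.355, 0.079 and 0.0721) and Flt1 at 2 days was lower (adjusted p = 0.0459).

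The tissue was tibialis anterior, the ankle dorsiflexor of the shin, from 12 male Wistar rats, 3 at each of 2, 10, 20 and 30 days, and RNA was sequenced from 24 muscles. In each rat the left muscle was trained every day by an implanted pulse generator that stimulated the nerve while the antagonist muscles loaded it, and the right muscle of the same rat was left unstimulated and is called contralateral here. The study took muscles 1 h after the last training session. A response to that session and a lasting effect of training therefore cannot be told apart in a trained value. The contralateral muscles belonged to operated animals, and no muscle came from a rat without an implant. RNA came from bulk tissue of the muscle that remained once its mid-belly had been removed for histology. Fewer endothelial cells and less RNA per endothelial cell therefore cannot be told apart in any value given below. A value is a TPM (a transcript's share of its library, corrected for transcript length) divided by 1 factor per muscle, and a fold change compares the 3 trained muscles of a time point with all 12 contralateral muscles on the log2(value + 1) scale, which understates changes of low transcripts.

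VEGF-A is secreted by muscle fibres and other cells and binds KDR (VEGF receptor 2) on endothelial cells, whose signalling drives survival, permeability and sprouting. FLT1 (VEGF receptor 1) binds VEGF-A and VEGF-B tightly, and its soluble form acts as a decoy. Angiopoietin 1, released by cells around the vessel, activates TEK (Tie2) and stabilises the vessel wall, while VE-cadherin, made from Cdh5, and PECAM-1 hold endothelial cells together.

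On the rn6 assembly, the 5 protein-coding transcripts of Vegfa (ENSRNOG00000019598) lie at chr9:17340341-17355682 on the plus strand and that of Vegfb (ENSRNOG00000021156) at chr1:222239022-222242645 on the minus strand. Kdr (ENSRNOG00000046829) lies at chr14:34727623-34787184 and Flt1 (ENSRNOG00000000940) at chr12:9034308-9205906, both on the plus strand. Tek (ENSRNOG00000008587) lies at chr5:113725717-113852800 on the plus strand, Angpt1 (ENSRNOG00000005854) at chr7:81342280-81592207 on the minus strand, and the longer of 2 Cdh5 transcripts (ENSRNOG00000013324) at chr19:1023683-1074366 on the minus strand. The 250 bases before the transcription start of the ligand and receptor genes are shown because these 4 genes meet at the same pathway and moved apart in the trained muscle. They come from RefSeq on build GRCr8 and are written 5′ to 3′ in the direction of transcription, at chr9:22452604-22452853 (plus strand) for the first of 2 Vegfa starts, chr1:213607153-213607402 (minus) for Vegfb, chr14:32571813-32572062 (plus) for Kdr and chr12:12333180-12333429 (plus) for Flt1. RefSeq sequence was used for 4 of the 7 genes, leaving Cdh5, Tek and Angpt1. Capitals mark the matches to the motifs named after the sequences.
Vegfa: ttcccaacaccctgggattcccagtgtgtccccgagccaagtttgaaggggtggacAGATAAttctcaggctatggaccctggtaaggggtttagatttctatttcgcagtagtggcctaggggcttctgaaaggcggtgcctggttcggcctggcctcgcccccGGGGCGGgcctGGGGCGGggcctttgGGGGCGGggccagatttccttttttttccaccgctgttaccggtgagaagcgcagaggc
Vegfb: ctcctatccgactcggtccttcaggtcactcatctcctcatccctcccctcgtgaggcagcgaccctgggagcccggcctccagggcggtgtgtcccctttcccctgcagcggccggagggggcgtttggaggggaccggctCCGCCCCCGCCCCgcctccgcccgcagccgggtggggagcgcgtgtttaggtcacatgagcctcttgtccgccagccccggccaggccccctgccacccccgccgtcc
Kdr: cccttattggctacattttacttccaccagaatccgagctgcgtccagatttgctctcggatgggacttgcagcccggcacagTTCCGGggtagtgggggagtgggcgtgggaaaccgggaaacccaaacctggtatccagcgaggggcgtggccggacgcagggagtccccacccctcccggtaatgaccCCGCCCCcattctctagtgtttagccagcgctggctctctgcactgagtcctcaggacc
Flt1: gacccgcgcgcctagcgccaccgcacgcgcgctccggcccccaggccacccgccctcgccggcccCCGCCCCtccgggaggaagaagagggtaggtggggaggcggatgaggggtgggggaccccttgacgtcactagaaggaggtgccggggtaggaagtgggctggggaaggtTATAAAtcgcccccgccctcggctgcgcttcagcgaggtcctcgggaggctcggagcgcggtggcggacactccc
The GC box GGGGCGG was present, on either strand, in the 4 windows shown, at 3 places in Vegfa and at 2 places sharing 1 base in Vegfb. Of 5 windows searched, that of the second Vegfa start, not shown, had no GC box. This motif was found in 18.8% of 33469 rat promoter windows of the same length. The Vegfa window also held AGATAA, the GATA factor letters, at positions -194 to -189 from the start (10.3% of windows). The Kdr window held CCGGAA, an ETS-type core read on the opposite strand, at -167 to -162 (12.6% of windows). The Flt1 window held TATAAA, at -75 to -70 (12.9% of windows). Other letters were searched on both strands and found in none of the 4 windows. They were the hypoxia response core ACGTG (16.6% of windows), the E-box CACGTG, which contains that core (5.59%), the AP-1 site TGANTCA (6.34%) and the estrogen-related receptor site TNAAGGTCA (1.04%).

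The depth of each library cannot be read from the TPM values, because those of the 20027 transcripts summed to the same total, 634431, in every muscle. The paper gives only a minimum number of reads per sample. This total is below that of a complete TPM column, so rows appear to have been left out, and the shares below are of the listed transcripts. The factors that brought the muscles to a common scale ran from 0.778 to 1.14. Mitochondrial transcripts held 40.4% to 44.6% of the total in the 3 muscles trained for 30 days and 23.7% to 35.97% in the other trained muscles, against 28.1% to 44.2% in the contralateral muscles. As the totals were equal, a larger mitochondrial share leaves less for the other transcripts together. In the values as deposited the median change of all genes at 30 days was -0.18 on the log2 scale, against -0.01 after rescaling, and 20.0% of the called genes were higher in place of 54.0%. The part of the mitochondrial share in the 30-day values was not tested.

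**Figure D1:**
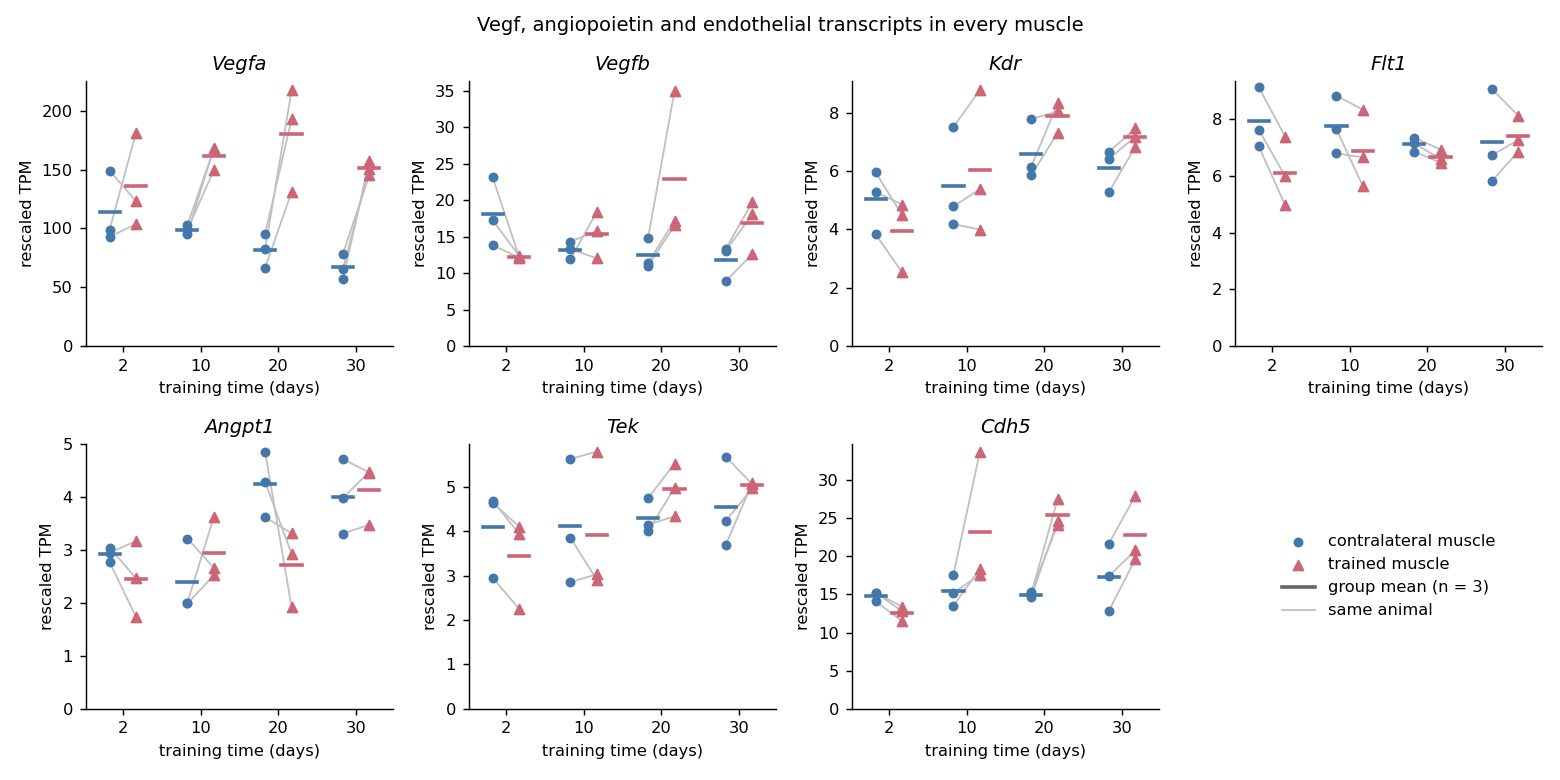
Normalised TPM of each gene (vertical axes, from 0) in every muscle by training time in days, with contralateral muscles as circles, trained muscles as triangles, the mean of 3 as a bar and a grey line joining the muscles of 1 animal. Vegfa was higher on the trained side in 11 of 12 animals, whereas at 2 days the lines of Vegfb, Kdr, Flt1, Tek and Cdh5 all slope down.

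In the contralateral muscles, where TPM allows levels of different genes to be compared per length, Vegfa was the most abundant of the 7 at 90.3 ± 23.96 (SD, n = 12). Cdh5 followed at 15.6 ± 2.33 and Vegfb at 13.9 ± 3.59, with overlapping ranges. Flt1 stood at 7.51 ± 1.03 and Kdr at 5.81 ± 1.21, again overlapping, and Tek at 4.27 ± 0.891 and Angpt1 at 3.40 ± 0.942 were lowest. The ranges of neighbours overlapped at every step of this order except that from Vegfa, whose lowest contralateral muscle had 56.6, to Cdh5, whose highest had 21.7.

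Counted together, 2 of the 7 genes passed at 2 days (Vegfa higher, Kdr lower), against 28.9% of all 11196 genes. At 10 days 2 of 7 passed (Vegfa, Cdh5; all genes 28.9%), at 20 days 3 of 7 (Vegfa, Vegfb, Cdh5; all genes 21.4%) and at 30 days 2 of 7 (Vegfa, Cdh5; all genes 20.6%). Over the mean of the time points 2 of 7 passed, against 40.2% of all genes. By direction, 15.4%, 15.6%, 11.7% and 11.1% of all genes were higher and 13.5%, 13.3%, 9.64% and 9.46% lower at 2, 10, 20 and 30 days, and these shares are the background of every count of a gene list given later. Counts of 2 or 3 in 7 genes were not read as setting the group apart from the whole table. No gene of the 7 differed between the 4 control groups by the limma F test (all genes 0.0625%), where Vegfa and Angpt1 had an unadjusted p under 0.05.

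Vegfa, the main ligand, read 181, 123 and 104 in the 3 trained muscles at 2 days and 99.01, 149 and 92.9 in the contralateral muscles of the same animals. After 10 days it read 167, 150 and 168 against 103, 98.7 and 95.7. After 20 days the trained muscles had 131, 193 and 217 and their contralateral partners 66.6, 95.5 and 82.5. After 30 days they had 158, 151 and 145 against 56.6, 65.4 and 78.4. The trained muscle was higher than its partner in 11 of 12 animals, the exception being replicate 2 at 2 days, whose contralateral muscle had the highest control value of all. The 3 muscles trained for 10 days all lay above all 12 controls, which 10% of genes did at that time.

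Against the pooled controls, Vegfa was raised by 0.59 ± 0.20 (log2, SE) at 2 days (limma, adjusted p = 0.0296), 0.87 ± 0.20 at 10 days (adjusted p = 0.00182), 1.00 ± 0.20 at 20 days (adjusted p = 0.000741) and 0.78 ± 0.20 at 30 days (adjusted p = 0.00702). The ratios of group means were 1.51, 1.79, 2.00 and 1.67. Over the mean of the 4 time points the change was 0.81 (95% interval 0.55 to 1.07, adjusted p = 1.51e-05). When the animal was a block, so that each trained muscle was set against its own partner, the 2-day value was 0.25 and did not pass (adjusted p = 0.355; 0.444 against the 3 controls of that time alone), and the 30-day value became 1.18 (adjusted p = 0.00107). The 2-day call was also lost without trained replicate 1 (0.37, adjusted p = 0.228), without trained replicate 2 (0.64, adjusted p = 0.0846) and on the most abundant transcript alone (0.48, adjusted p = 0.0642). In the values as deposited the 30-day change was 0.56 with an adjusted p of 0.0757. The contralateral level itself ran from a mean of 114 at 2 days through 99.1 and 81.5 to 66.8 at 30 days, a difference between control groups with an unadjusted p of 0.00966 and an adjusted p of 0.350 in the limma F test.

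The 5 Vegfa transcripts were unequal in size. Vegfa-202 held a median of 86.9% of the gene in the contralateral muscles (77.8% to 90.2%), while the trained medians were 79.6% (2 days), 86.2% (10 days), 80.0% (20 days) and 81.9% (30 days). Most of the remainder was Vegfa-201, with a median of 6.77% in controls and 11.7%, 7.67%, 9.80% and 9.97% in trained muscles, and Vegfa-205, with 6.13% in controls and 9.16%, 5.58%, 9.30% and 8.05%. Vegfa-203 and Vegfa-204 stayed under 1.4% in every muscle. The shares of the groups overlapped, reads are divided among these transcripts by estimation, and no test was made of them.

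Vegfb, the sister ligand that binds FLT1 and not KDR, did not share this pattern at 2 days. Its trained muscles then read 12.1, 12.3 and 12.4 against 13.8, 23.1 and 17.3 on the contralateral side, lower in all 3 animals. After 10 days it read 12.02, 18.4 and 15.8 against 13.3, 11.9 and 14.3, and after 30 days 18.1, 12.6 and 19.7 against 13.1, 8.92 and 13.3. At 20 days the trained muscles had 16.5, 35.0 and 17.2 against 11.01, 14.9 and 11.4, a change of 0.64 ± 0.20 (limma, adjusted p = 0.0268) that rested on replicate 2: without it the change was 0.30 (adjusted p = 0.373). At the other time points the changes were -0.13 (2 days), 0.16 (10 days) and 0.27 (30 days), with adjusted p of 0.670, 0.612 and 0.376. Averaged over time points Vegfb changed by 0.23 (95% interval -0.03 to 0.50, adjusted p = 0.157), and this passed with the animal as a block (adjusted p = 0.0376). It also passed without the contralateral muscle of replicate 2 at 2 days (0.30, adjusted p = 0.0428).

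Of the other ligands, Pgf (placental growth factor, which binds FLT1) gave -0.31, 0.45, 0.46 and 0.21 at 2, 10, 20 and 30 days and passed at no time. With the animal as a block its 10-day value was 0.60 (adjusted p = 0.0233). Vegfc and Vegfd, the lymphatic growth factors, were below the filter, with 1 or more in 2 and 0 of the 24 muscles. Counted over the VEGF ligands, 1 of 3 tested genes was higher at 2, 10 and 30 days and 2 of 3 at 20 days (all genes 15.4%, 15.6%, 11.1% and 11.7%). In the block fit the counts were 0 of 3 at 2 days and 2 of 3 at 10 days, and Pgf was under the filter in the controls alone.

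**Figure D2:**
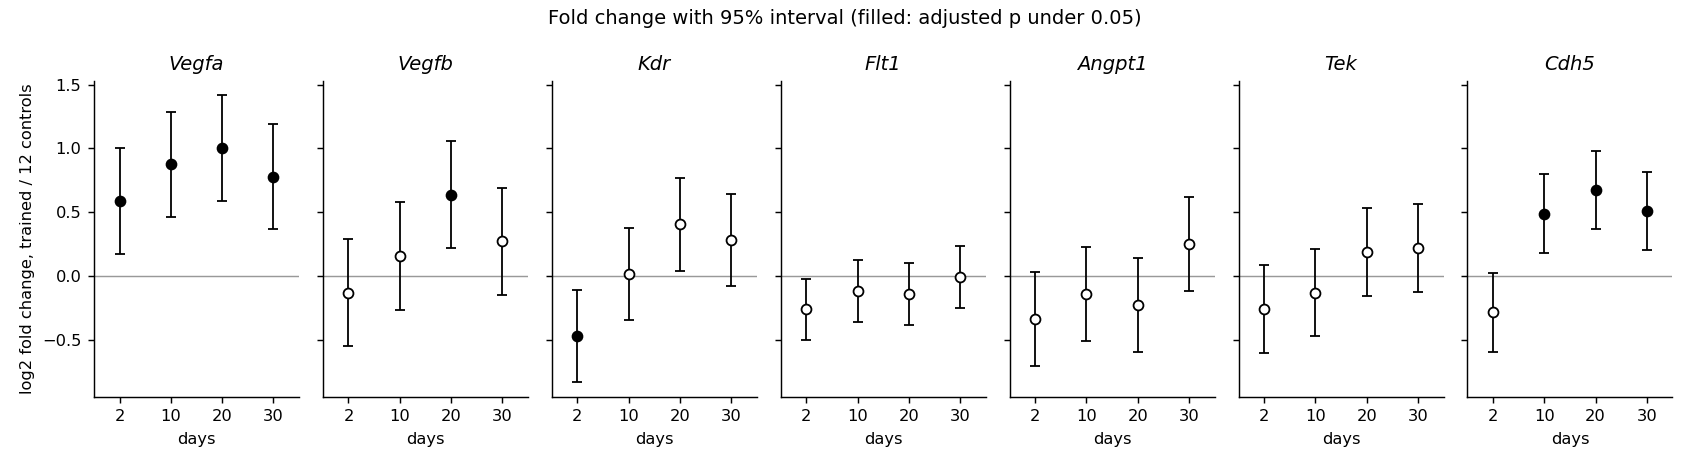
Log2 fold change of trained muscles (n = 3) against the 12 contralateral muscles for the 7 genes at 2, 10, 20 and 30 days, with 95% intervals from limma; filled points passed an adjusted p of 0.05. Vegfa is filled at all 4 times and Cdh5 from 10 days, whereas Flt1, Angpt1 and Tek have no filled point and Kdr moves from -0.47 at 2 days to 0.40 at 20 days.

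Kdr, the receptor through which VEGF-A acts on endothelial cells, was lower on the trained side of all 3 animals at 2 days, with 4.85, 2.53 and 4.49 against 5.29, 3.84 and 5.96. After 10 days the trained muscles read 5.38, 4.00 and 8.78 against 4.80, 4.18 and 7.51. After 20 days they read 8.32, 7.31 and 8.05 against 6.15, 5.85 and 7.79, and after 30 days 7.19, 7.47 and 6.84 against 6.42, 6.67 and 5.29, higher in all 6 animals. The 2-day change was -0.47 ± 0.18 (limma, adjusted p = 0.0470), close to the threshold and lost in 18 of 24 fits that left out 1 muscle. Without trained replicate 2 it was -0.24 (adjusted p = 0.462), and with the animal as a block -0.30 (adjusted p = 0.0790). The later changes of 0.02 (95% interval -0.35 to 0.38), 0.40 (0.04 to 0.77) and 0.28 (-0.08 to 0.65) did not pass, with adjusted p of 0.962, 0.107 and 0.278. Over the mean of time points Kdr changed by 0.06 (95% interval -0.17 to 0.29), a mean of values on either side of 0.

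Flt1 was lower on the trained side in 10 of 12 animals, by small amounts. The muscles trained for 2 days read 7.39, 4.97 and 5.99 against 9.14, 7.06 and 7.63, those trained for 10 days 6.65, 5.64 and 8.34 against 6.80, 7.65 and 8.83, and those trained for 20 days 6.46, 6.60 and 6.93 against 6.86, 7.14 and 7.35. At 30 days 8.12, 7.27 and 6.86 stood against 9.06, 6.73 and 5.82. The changes were -0.26 (95% interval -0.50 to -0.02), -0.12, -0.14 and -0.01, with limma adjusted p of 0.0980, 0.502, 0.437 and 0.971. With the animal as a block the 2-day value was -0.34 and passed (adjusted p = 0.0459). It also passed without trained replicate 1 (-0.39, adjusted p = 0.0291).

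Among the other receptors, Nrp1, the coreceptor that presents VEGF-A to KDR, fell at 2 days by 0.66 on the log2 scale (adjusted p = 0.00261, and 0.0940 against the 3 controls of that time alone), with 5.87, 5.19 and 6.01 in trained muscles against 7.16 to 13.3 in the 12 controls. At 10, 20 and 30 days its changes of -0.12, 0.01 and 0.06 did not pass. Nrp2, better known as the coreceptor of lymphatic VEGF-C, was low but raised by 0.69, 0.58 and 0.56 at 10, 20 and 30 days (adjusted p = 0.000105, 0.00105 and 0.00178), from 0.393 to 1.02 in controls to 1.22 to 2.45 in those 9 muscles. Nrp2 was under the filter in the controls alone and was tested only because these trained muscles were high, so its calls are a description. Flt4, the lymphatic receptor, passed at no time, with 0.04, 0.12 and 0.12 from 10 days on. In all, 2 of 5 VEGF receptors were lower at 2 days (Kdr and Nrp1) and 1 of 5 was higher at each later time (Nrp2), against 13.5% of all genes lower at 2 days. In the values as deposited 1 of 5 was lower at 2 days.

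Angpt1 had the largest control SD of the 7 genes relative to its mean. At 2 days the trained muscles read 3.17, 1.74 and 2.47 against 2.95, 2.77 and 3.05, at 10 days 3.63, 2.67 and 2.52 against 2.01, 3.22 and 1.99, at 20 days 2.93, 1.93 and 3.32 against 4.29, 4.86 and 3.62, and at 30 days 4.48, 3.48 and 4.47 against 3.99, 3.31 and 4.72. The contralateral means went from 2.92 and 2.41 at 2 and 10 days to 4.26 and 4.01 at 20 and 30 days (limma F test between control groups, unadjusted p = 0.00443, adjusted p = 0.323). The change against all controls was -0.34 (95% interval -0.70 to 0.03), -0.14, -0.23 and 0.25, with adjusted p of 0.159, 0.606, 0.410 and 0.346. At 20 days all 3 animals were lower on the trained side, and at 10 days the direction depended on the control, being 0.22 against the animals' own partners.

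Its receptor Tek read 4.11, 2.25 and 3.95 after 2 days against 4.65, 2.96 and 4.69, lower in all 3 animals, and 3.03, 2.91 and 5.80 after 10 days against 2.86, 3.86 and 5.63. After 20 days it read 4.98, 4.34 and 5.53 against 4.01, 4.15 and 4.76, and after 30 days 5.06, 4.97 and 5.10 against 5.69, 4.24 and 3.70. The changes of -0.26, -0.13, 0.19 and 0.22 had 95% intervals reaching from -0.60 at 2 days to 0.56 at 30 days, and limma adjusted p of 0.258, 0.607, 0.463 and 0.386. Tie1, the sister receptor without a ligand of its own that modulates TEK, was higher at 10 days (0.57, adjusted p = 0.00767) and 20 days (0.67, adjusted p = 0.00313). The first call was lost without trained replicate 3 at 10 days and the second without trained replicate 2 at 20 days. Angpt2, the context-dependent antagonist of TEK, gave -0.38, -0.24, -0.27 and -0.39, none of which passed, while its mean over time points did (-0.32, adjusted p = 0.0282). That call was lost in the fits without trained replicate 3 at 2 days, replicate 2 at 10 days or replicate 2 at 30 days. Of 6 angiopoietin and Tie genes tested, 1 was higher at 10 and at 20 days (Tie1) and 0 passed at 2 and 30 days by limma, where 1 gene, Angpt2, had an unadjusted p under 0.05 at each time (0.045 and 0.0423). The block fit called 1 of 6 lower at 2 days.

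Cdh5 had the smallest adjusted p of the 7 genes in the test between training days. At 2 days it was lower on the trained side in all 3 animals, with 13.4, 11.5 and 12.8 against 15.2, 14.1 and 15.2. At 10 days it read 18.3, 17.6 and 33.6 against 13.5, 15.2 and 17.6, at 20 days 24.6, 27.5 and 24.1 against 14.7, 14.99 and 15.3, and at 30 days 27.9, 20.8 and 19.6 against 21.7, 17.4 and 12.9, higher in all 9 animals. The 3 muscles trained for 20 days lay above all 12 controls, as 8.23% of genes did.

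The change of Cdh5 was -0.29 ± 0.15 at 2 days (limma, adjusted p = 0.154), 0.49 ± 0.15 at 10 days (adjusted p = 0.0152), 0.68 ± 0.15 at 20 days (adjusted p = 0.00177) and 0.51 ± 0.15 at 30 days (adjusted p = 0.0162). The ratios of means were 0.804, 1.48, 1.62 and 1.46. The 10-day call rested on replicate 3, whose trained muscle had the highest Cdh5 and Kdr and the highest Tek of the 24 muscles: without it the change was 0.20 (adjusted p = 0.328). The 30-day call was lost without trained replicate 1 (0.36, adjusted p = 0.158), with the animal as a block (0.39, adjusted p = 0.0721) and in the values as deposited (0.30, adjusted p = 0.150). Over the mean of time points Cdh5 was raised by 0.35 (95% interval 0.15 to 0.54, adjusted p = 0.00461).

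The trained muscles of different days could also be set against each other. The change differed between training days for 2 of 7 genes, Cdh5 (limma F test, adjusted p = 0.00439) and Kdr (adjusted p = 0.0337), against 12% of all genes. Cdh5 was higher at 10 than at 2 days by 0.77 (adjusted p = 0.0315; 1 of 7 genes, against 1.93% of all), at 20 than at 2 days by 0.96 (adjusted p = 0.00221) and at 30 than at 2 days by 0.80 (adjusted p = 0.00571). Kdr was higher at 20 than at 2 days by 0.88 (adjusted p = 0.0154; 2 of 7 genes, against 8.05% of all) and at 30 than at 2 days by 0.75 (adjusted p = 0.0231; 2 of 7 genes, against 15% of all). For Vegfa no pair of days differed, the largest being 0.41 between 20 and 2 days (95% interval -0.11 to 0.94, adjusted p = 0.365). Between 10, 20 and 30 days 0 of 7 genes differed by limma (all genes 0.17%, 3.94% and 0.0357% for the 3 pairs), with 1 unadjusted p under 0.05, that of Angpt1 between 30 and 20 days. The block left adjusted p of 0.0682 for Cdh5 and 0.212 for Kdr in the test between days and 3 calls between pairs of days in place of 5, and without trained replicate 2 at 2 days that of Kdr was 0.225. The call of Kdr between days was lost in 7 of 24 fits that left out 1 muscle and in the values as deposited (adjusted p = 0.0967), and that of Cdh5 was kept in all of them.

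Ratios of genes within a muscle do not depend on the scaling of the library, and trained and contralateral muscle could be compared in each animal. The ratio of Vegfa to Vegfb was higher on the trained side in 10 of 12 animals, by 0.57 ± 0.39 (log2, SD), or 1.48-fold (exact sign-flip permutation test, two-sided, p = 0.00195, adjusted over 4 ratios 0.00391). Its geometric mean was 10.8 against 6.28 at 2 days, 10.6 against 7.54 at 10 days, 8.19 against 6.55 at 20 days and 9.15 against 5.71 at 30 days. The ratio of Kdr to Cdh5 was lower on the trained side in 11 of 12 animals, by 0.31 ± 0.22 on the log2 scale (exact permutation p = 0.000977, adjusted 0.00391). It read 0.304 against 0.334 at 2 days, 0.259 against 0.347 at 10 days, 0.311 against 0.437 at 20 days and 0.318 against 0.360 at 30 days.

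The ratio of Flt1 to Kdr was lower on the trained side in 10 of 12 animals, by 0.21 ± 0.19 (exact permutation p = 0.00439, adjusted 0.00586). At 2 days it was the same within the spread, 1.59 against 1.60, and it was lower in all 9 later animals, with 1.18 against 1.45, 0.845 against 1.09 and 1.03 against 1.16. It shares Kdr with the ratio of Kdr to Cdh5, so these results are not independent, and without the pairing of muscles it did not pass (permutation adjusted p = 0.225). The ratio of Angpt1 to Tek moved by -0.15 ± 0.59 and was higher on the trained side in 5 of 12 animals (exact permutation p = 0.403). It was higher in all 3 animals at 10 days and lower in all 3 at 20 days, with no test of that difference.

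**Figure D3:**
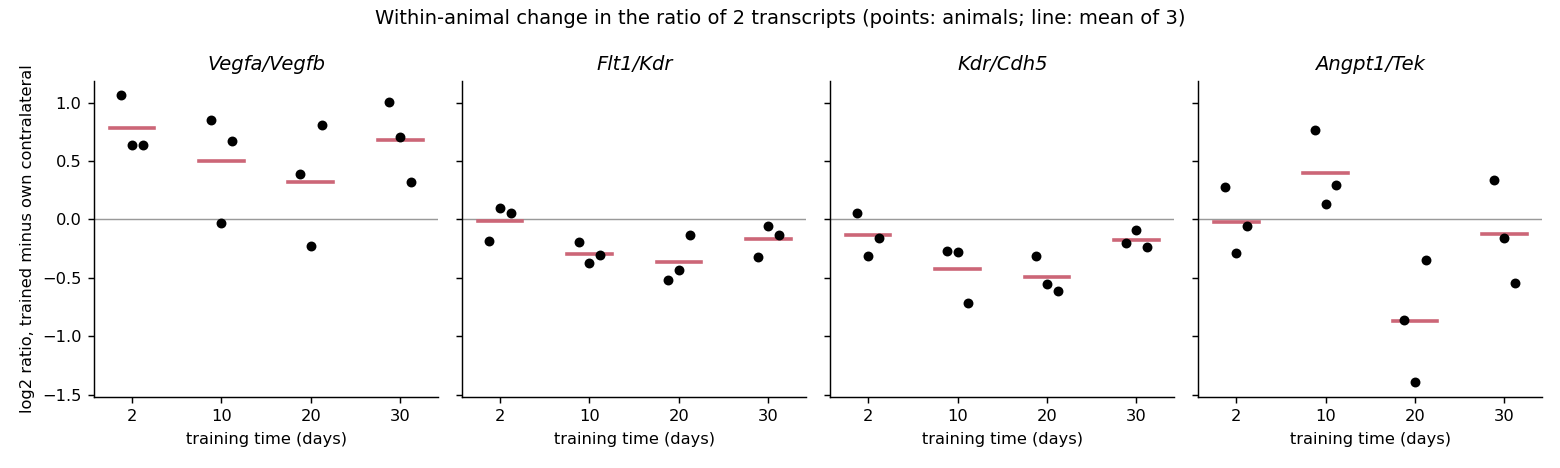
Log2 ratio of a pair of transcripts in the trained muscle minus that in the animal's own contralateral muscle, by training time in days, with 1 point per animal and a bar for the mean of 3. Points of Vegfa/Vegfb lie above 0 in 10 of 12 animals and those of Kdr/Cdh5 below 0 in 11 of 12, while Angpt1/Tek scatters around 0.

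The wider endothelial list, 30 markers tested with Cdh5 and Tie1 among them, had most of its calls from 10 days on. At 2 days 1 marker was higher (Plvap, the diaphragm protein of fenestrated endothelium, 0.76, adjusted p = 0.0115) and 1 lower (Cyyr1, -0.55, adjusted p = 0.0098), with a median of 0.08 against -0.01 for all genes. Both calls were lost without trained replicate 2 at 2 days, and with the animal as a block the adjusted p of Plvap was 0.0607. After 10 days 14 of 30 were higher and 0 lower (all genes 15.6% higher), after 20 days 20 of 30 (all genes 11.7%) and after 30 days 8 of 30 (all genes 11.1%), with medians of 0.44, 0.58 and 0.25 against -0.03, -0.03 and -0.01 for all genes. Cd34, the sialomucin of capillary endothelium and of other progenitor cells, rose by 0.73, 1.10 and 0.96 at 10, 20 and 30 days (adjusted p = 0.00161, 2.88e-05 and 0.000182). Cav1, the coat protein of caveolae, rose by 0.68, 0.72 and 0.72 (adjusted p = 0.000303, 0.00023 and 0.000318). Gpihbp1, which anchors lipoprotein lipase on capillaries, rose at 10 days by 0.75 (adjusted p = 0.0465) and at 20 days by 1.33 (adjusted p = 0.00119), from 2.42 to 8.83 in controls to 17.5, 18.5 and 11.3 at 20 days. Its 10-day adjusted p was 0.241 with the animal as a block.

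The summed level of the 31 endothelial markers in the table was 368 to 521 in the controls and 449 to 473 at 2 days. It was 561 to 791 at 10 days, 666 to 703 at 20 days and 544 to 703 at 30 days. In these rescaled values every muscle trained for 10 days or longer therefore lay above every control. Sums of the values as deposited were not compared. A sum is weighted to its most abundant markers, and how often sums of other genes separate in this way was not counted. The 10-day count fell from 14 to 5 of 30 without trained replicate 3 and was 9 with the animal as a block, and the 30-day count was 2 in the values as deposited.

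**Figure D4:**
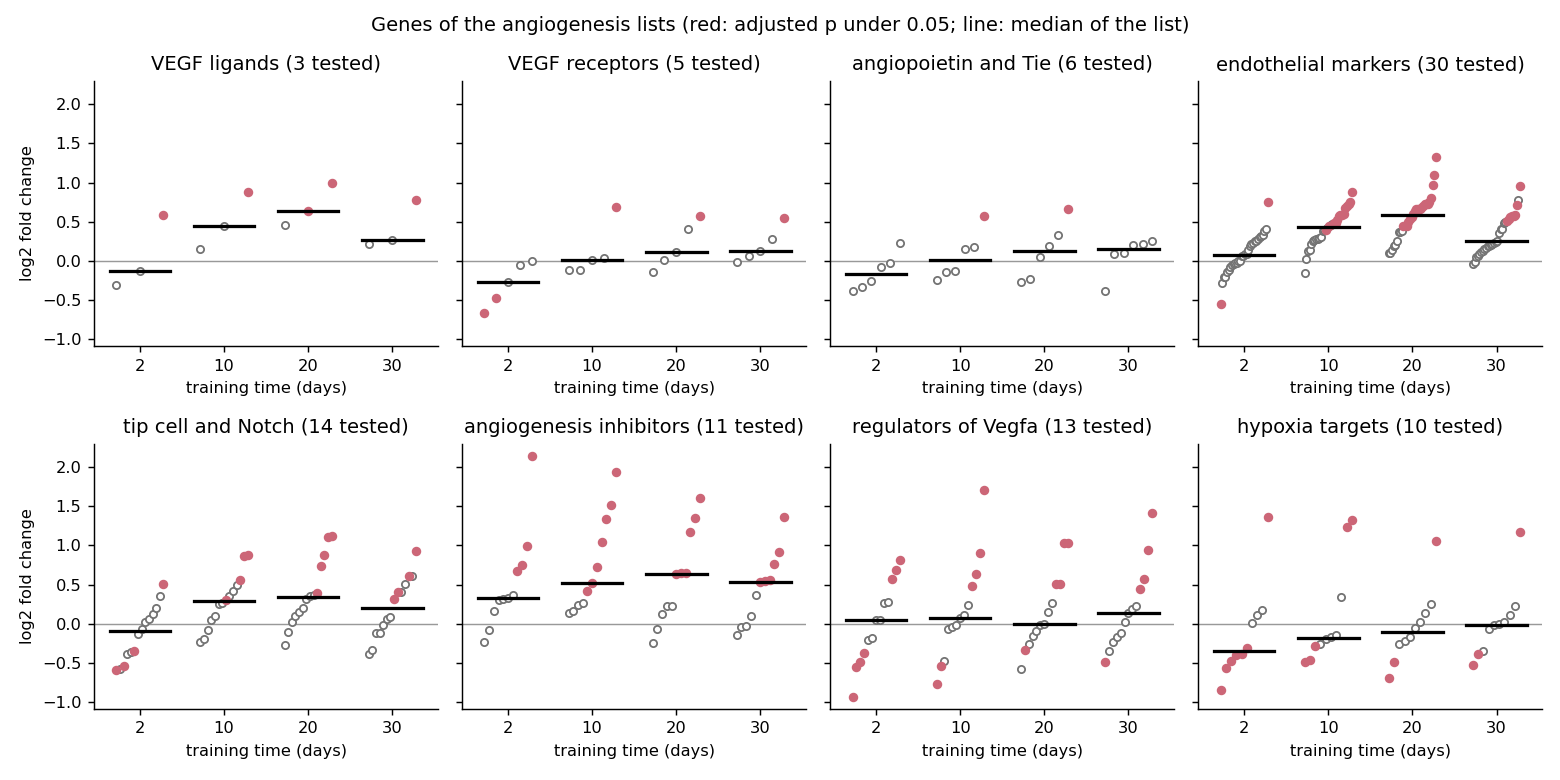
Log2 fold changes (vertical axes) at 2, 10, 20 and 30 days of the tested genes of 8 lists, with genes past an adjusted p of 0.05 in red, the others open, and the median of each list as a black line. The endothelial markers centre near 0 at 2 days and reach a median of 0.58 at 20 days, whereas the VEGF receptors keep medians between -0.26 and 0.12.

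Sprouting and Notch genes, which mark and restrain the endothelial tip cell, split by time. At 2 days 1 of 14 was higher (Hes1, a Notch target, 0.51, adjusted p = 0.0376) and 3 lower: Apln (-0.55, adjusted p = 0.026), the apelin peptide of tip cells, Esm1 (-0.59, adjusted p = 0.0135), a secreted tip cell proteoglycan, and Dll4 (-0.35, adjusted p = 0.0252), the Notch ligand that VEGF induces. With the animal as a block the adjusted p was 0.0535 for Hes1, 0.202 for Apln and 0.253 for Esm1, and the call of Dll4 was lost in the values as deposited (adjusted p = 0.126). Each of these 4 calls was lost without trained replicate 2 at 2 days. From 10 days on Apln was the opposite, at 0.86, 1.11 and 0.92 (adjusted p = 0.000773, 8.43e-05 and 0.000739), with 2.52 to 6.203 in those 9 muscles against 1.01 to 2.89 in controls and 0.67 to 0.958 at 2 days. Pdgfb, the factor by which endothelium recruits pericytes, rose by 0.88 at 10 days and 0.88 at 20 days (adjusted p = 9.44e-05 and 0.000144). In all 4, 5 and 4 of the 14 were higher at 10, 20 and 30 days (all genes 15.6%, 11.7% and 11.1%) and 0 lower. Hey1, 1 of the 14, was under the filter in the controls alone. The counts were 2, 4 and 2 with the animal as a block, 2 at 10 days without trained replicate 3 of that time, and 1 higher and 1 lower at 30 days in the values as deposited.

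For the signalling genes, regulators, targets, inhibitors and factors that follow, fold changes are given for times at which the call held with the animal as a block and in each of the 24 fits that left out 1 muscle, unless said otherwise. Among 26 genes downstream of KDR, 4 were higher and 1 lower at 2 days, 8 and 1 at 10 days, 5 and 2 at 20 days, and 2 and 1 at 30 days. At 2 days the share higher was that of all genes (15.4%). In the block fit the splits were 2 and 0 at 2 days and 0 and 0 at 30 days, without trained replicate 3 the 10-day count was 5 higher, and in the values as deposited the 30-day split was 1 higher and 7 lower. Src, the kinase that links KDR to vascular permeability, rose by 1.35 at 10 days and 1.17 at 20 days (adjusted p = 1.82e-05 and 0.000158). Hspb1, the small heat shock protein that p38 signalling phosphorylates and that muscle fibres also make, rose by 2.45 and 1.77 at 2 and 10 days (adjusted p = 7.39e-07 and 4.51e-05). Mapk3, the kinase ERK1, rose by 0.42 and 0.60 at 10 and 20 days (adjusted p = 0.00225 and 9.04e-05).

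Of 13 known regulators of Vegfa, 3 were higher and 4 lower at 2 days, 4 and 2 at 10 days, and 4 and 1 at 20 and at 30 days. The splits were 3 and 2 at 2 days with the animal as a block, and 4 and 3 at 2 days and 2 and 3 at 30 days in the values as deposited. Hif1a, the oxygen-sensitive transcription factor subunit, rose by 0.58, 0.91, 1.03 and 0.94 at 2, 10, 20 and 30 days (adjusted p = 0.000622, 2.54e-06, 6.57e-07 and 3.93e-06), from 3.83 to 5.52 in controls to 6.31 to 11.9 in the 12 trained muscles. The share of all genes whose 12 trained muscles lay above every control was not counted. Ppargc1a, the coactivator PGC-1α that induces Vegfa in muscle, rose by 1.70, 1.03 and 1.41 at 10, 20 and 30 days (adjusted p = 5.28e-06, 0.00214 and 0.000114). Its 2-day value of 0.69 (adjusted p = 0.0287) was lost without trained replicate 1 or without trained replicate 2. Stat3 rose by 0.82 and 0.63 at 2 and 10 days (adjusted p = 1.36e-05 and 0.000226). Epas1, the endothelial paralogue HIF-2α, fell at 2 days by 0.56 on the log2 scale (adjusted p = 0.0018) and rose by 0.51 and 0.56 at 20 and 30 days (adjusted p = 0.00504 and 0.00252), with 46.9, 29.6 and 30.4, then 68.3 to 85.2 in those 6 muscles, against 45.8 to 61.0 in controls. In the values as deposited its 30-day adjusted p was 0.0676. The lower genes included Egln3, a prolyl hydroxylase that marks HIF for decay, with -0.77 at 10 days (adjusted p = 7.4e-05).

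Of 10 hypoxia targets, 1 was higher and 6 lower at 2 days, 2 and 3 at 10 days, and 1 and 2 at 20 and at 30 days, with medians of -0.34, -0.18, -0.11 and -0.01. In the values as deposited the split was 1 higher and 3 lower at 2 days and 3 higher and 1 lower at 10 days. The risers were Slc2a1, the glucose transporter GLUT1, at 2 and 10 days (1.36 and 1.32, adjusted p = 1.25e-06 and 1.6e-06), and Adm, the vasodilator adrenomedullin, at 10, 20 and 30 days (1.24, 1.05 and 1.17, adjusted p = 0.00014, 0.00114 and 0.000467). Slc2a1 was under the filter in the controls alone, so its calls are a description. P4ha1, a collagen prolyl hydroxylase, fell at 2 days by 0.85 and at 20 days by 0.70 on the log2 scale (adjusted p = 7.17e-06 and 0.000115).

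Among inhibitors of angiogenesis, 4, 7, 6 and 6 of 11 tested genes were higher at 2, 10, 20 and 30 days and 0 lower, against 15.4%, 15.6%, 11.7% and 11.1% of all genes higher. Of the 11, 2 were under the filter in the controls alone. Under the block 1 was also lower at 2 days, and in the values as deposited 3 were higher at 30 days. Thbs1, thrombospondin 1, rose by 2.14, 1.94, 1.61 and 1.37 (adjusted p = 7.69e-13, 5.52e-12, 2.33e-10 and 5.02e-09), from 0.69 to 1.52 in controls to 3.40 to 8.90 in the 12 trained muscles. Col18a1, the collagen whose fragment is endostatin, rose by 0.75, 1.51, 1.17 and 0.77 (adjusted p = 4.48e-05, 1.36e-09, 1.26e-07 and 6.22e-05). Adamts1, a protease that binds VEGF, rose by 0.99 and 1.05 at 2 and 10 days (adjusted p = 0.000236 and 0.000119).

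Of 13 other angiogenic factors, 4 were higher and 3 lower at 2 days, 8 and 0 at 10 and at 20 days, and 6 and 1 at 30 days. In the values as deposited the split was 6 and 1 at 2 days and 4 and 1 at 30 days, and with the animal as a block it was 5 and 0 at 2 days, 6 and 1 at 10 days and 7 and 1 at 20 days. Tgfb1 rose by 0.89, 1.20, 0.94 and 0.66 at the 4 times (adjusted p = 7.9e-05, 1.49e-06, 6.09e-05 and 0.00274). Ccn2, the matricellular growth factor CTGF, rose by 1.62 and 1.73 at 2 and 10 days (adjusted p = 0.000159 and 6.78e-05). Angptl4 went the other way, higher on the trained side in 0 of 12 animals, with a mean of -0.75 against their own partners (log2).

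Other cell types changed in the same muscles, and their part in the values above was not tested. Of 7 macrophage, leukocyte and platelet genes tested, 4, 5, 7 and 7 were higher at 2, 10, 20 and 30 days, with a summed level of the 12 in the table of 12.4 to 29.0 in controls and 48.9 to 128 at 2 days, 33.9 to 74.6 at 10 days, 48.0 to 60.8 at 20 days and 55.3 to 73.5 at 30 days, and no marker at 0 throughout a group. Of 7 fibroblast genes, 4, 6, 6 and 6 were higher, with sums of 91.1 to 281 in controls and 323 to 1024 in trained muscles. Of 12 pericyte and smooth muscle genes, 5 were higher and 1 lower at 2 days (Rgs5, -0.68, adjusted p = 0.187 with the animal as a block), 4 and 0 at 10 days, 3 and 0 at 20 days, and 2 and 1 at 30 days (Abcc9, -0.36, adjusted p = 0.193 with the animal as a block), with sums of 1826 to 2648 in controls and 2979 to 4332 at 2 days. The median change of the 12 genes at 2 days was 0.26. Cnn1, 1 of the 12, was under the filter in the controls alone. The list held Des, which is not specific to these cells and was 0.98 at 2 days against the animals' own partners. Under the block 2 of these 12 were higher at 2 days, and in the values as deposited the 30-day split was 1 and 1. Of 4 lymphatic genes, 3, 2, 1 and 1 were higher, Pdpn at each time (0.99, 0.95, 0.81 and 0.85), and Prox1, the defining lymphatic factor, was under the filter at up to 0.323. Of 8 myofibre genes, 0 were higher and 3 lower at 2 days, and 2 and 5 at 10 days. The split was 0 and 5 at 20 days and 0 and 4 at 30 days. Their sums were 85907 to 99119 in controls and 58664 to 99417 in trained muscles, so the samples were muscle on both sides. The list held Myh4, the type IIB myosin gene, with a mean of -0.39 against the animals' own partners (log2). Its means at 2, 10, 20 and 30 days were -0.17, -0.30, -0.61 and -0.48. Pvalb and Actn3, picked for their large changes, were at -2.41 and -1.55. The paper reports a shift from type IIB to type IIX fibres with training, and hypertrophy of every fibre type. It also reports a sharp decline of type IIB myosin RNA in the later training groups, far larger than the changes given here. The cause of this difference was not tested. Whether the lower values of the myofibre genes came from fibre type or from fibre number was not tested.

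The genes whose level followed each member most closely over the 24 muscles, among genes with a mean of at least 5, were found by Pearson correlation of log2 values; the 24 points share 12 animals and 5 groups. For Vegfa they were Coq10b (r = 0.878), Nr4a1, an immediate-early nuclear receptor (0.867), and Sdc4, a heparan sulphate proteoglycan (0.867). For Vegfb they were Serinc2 (0.825), Mrpl34 (0.755) and Ndufs7, a subunit of respiratory complex I (0.750). For Cdh5 they were RGD1310587 (0.924), Cav1 (0.918) and Kitlg, stem cell factor (0.897). For Kdr they were RGD1310587 (0.843), Plpp3 (0.818) and Nrp1 (0.793), and for Tek they were Kdr (0.865), the chemokine Cxcl12 (0.861) and Aco1 (0.781). For Flt1 they were Adgrf5 (0.873), Scarb2 (0.780) and Dlat (0.738), and for Angpt1 they were Jak1 (0.784), Klhl38 (0.749) and Smarca2 (0.749).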

How the data were processed

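RNA from 24 tibialis anterior muscles of 12 rats was sequenced. Per the labels and the study's methods, the authors trimmed reads, aligned them with STAR to rn6 and quantified Ensembl transcripts in Partek, and they deposited TPM values for 20027 transcripts without pooling replicates. The gene-level signal values that the authors deposited for 4635 genes, 3 of the 8 members among them, were used only as an alternative, and a table of the authors' own p-values, FDR and ratios was not used. No counts were used, so the depth of each library, for which the paper gives a minimum, and its counting error are unknown.

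Each muscle's TPM values were brought to a common scale with 1 factor, the median ratio to the geometric mean over 16230 transcripts above 0 throughout, then summed per gene symbol and kept at 1 or more in at least 3 muscles. limma 3.58.1 in R 4.3.3 was fitted to log2(value + 1) with 5 groups, with Benjamini-Hochberg adjustment over 11196 genes within each comparison and a threshold of 0.05. Ratios were tested on log2 values by sign flips over 12 animals, adjusted over 4 ratios. Python 3.11.15, numpy 2.4.6, pandas 2.3.3, scipy 1.17.1 and matplotlib 3.10.9 were used, and the fit was tested on simulated data. No muscles held identical values (0 of 276 pairs).

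Trained and contralateral muscles came from the same animal, which is where the pairing comes from. Deviations from group means had a median correlation of 0.174 over the 12 same-animal pairs (0.0277 to 0.343, 8 over 0.1) and of -0.1 over 24 pairs of different animals of the same day.

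The members and 15 gene lists were chosen with earlier results of these data known. Named genes were members, 11 genes fixed by symbol, at most 4 per list with the largest changes among those past the threshold at 2 or more times in 1 direction, and the 3 best correlated genes per member with a mean of at least 5. Cav1, Esm1, Dll4, Cyyr1, Rgs5 and Abcc9 were named after their values were seen. Alternatives changed the scaling, pseudocount, filter, control group, transcript summing, pairing and gene table, and left out each muscle in turn.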

Additional observations from a re-analysis of the deposited data

Results flagged for a closer look

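A change that was not the same at all 4 training times was found for Kdr (limma F test between training days, adjusted p = 0.0337) and Cdh5 (adjusted p = 0.00439) among the 7 genes. Of the other VEGF receptors it was found for Nrp1 (adjusted p = 0.0444) and Nrp2 (adjusted p = 0.00599). Endothelial and tip cell genes with such a difference were Cd34 (adjusted p = 0.00235), Cav1 (adjusted p = 0.004997), Gpihbp1 (adjusted p = 0.0368) and Apln (adjusted p = 0.000115). Among signalling genes, regulators and hypoxia targets they were Hspb1 (adjusted p = 0.00261), Epas1 (adjusted p = 0.000157), Slc2a1 (adjusted p = 0.000161) and Adm (adjusted p = 0.0303), and among inhibitors Thbs1 (adjusted p = 0.00223) and Col18a1 (adjusted p = 0.00256). Nrp2 and Slc2a1 were under the filter in the controls alone and were tested only because trained muscles were high. Their values in this test are therefore a description. Hspb1 and Thbs1 were highest at 2 days, whereas Cdh5, Kdr, Nrp2, Cd34, Gpihbp1 and Apln were lowest then. Slc2a1 was raised by 1.36 at 2 days and 1.32 at 10 days against the pooled controls. Against the animals' own partners it was raised by 1.16 and 1.47, so which of these days was higher depended on the control.

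With the animal as a block, only Epas1 and Apln of these 14 genes kept an adjusted p under 0.05. For the others it ran from 0.0549 (Slc2a1) to 0.387 (Nrp1).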

How the results depend on the processing

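At 2 days 2 of the 7 genes passed as reported, 1 in the values as deposited, without a filter or with the animal as a replicate block, and 0 with time-matched controls or the most abundant transcript alone. At 10 days 2 became 1 with time-matched controls. At 30 days 2 became 0 in the values as deposited and 1 with the block or with time-matched controls. At 20 days 3 passed in every one of these settings. The number that differed between training days went from 2 to 1 as deposited and to 0 with the block or time-matched controls, and the calls between pairs of days from 5 to 3 as deposited and 3 with the block. Over all genes, time-matched controls gave 2007 calls in place of 3240 at 10 days, 1589 in place of 2393 at 20 days and 1121 in place of 2304 at 30 days, and the block gave 1377 at 30 days. The cause was not tested. In the values as deposited, 74.5%, 75.5%, 61.0% and 20.0% of called genes were higher at 2, 10, 20 and 30 days, against 53.4%, 53.9%, 54.9% and 54.0% after rescaling.

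Directions turned for values near 0. Flt1 at 30 days was 0.053 with the block or time-matched controls, Angpt1 at 10 days 0.22 with either, and Flt4 at 2 days 0.0521 as deposited. The Flt1 to Kdr ratio was -0.21 with and without the pairing, with a permutation adjusted p of 0.225 without it. A pseudocount of 1 in the ratios, chosen after seeing the data, changed no call. The block changed no call of the 7 genes other than those given beside the results, and the gene-level table changed none of the calls of its 3 members.

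Leaving out 1 muscle at a time gave 0 to 2 calls among the 7 at 2 days (0 without trained replicate 2), 1 to 2 at 10 days (1 without trained replicate 3), 2 to 3 at 20 days (2 without trained replicate 2), 1 to 2 at 30 days (1 without trained replicate 1), 1 to 2 between days and 2 to 6 between pairs of days (2 without trained replicate 2 at 2 days, 6 without its replicate 1). Calls over all genes ran from 1513 (without trained replicate 2) to 3505 at 2 days, 2147 (without trained replicate 1) to 3323 at 10 days, 1734 to 2500 at 20 days and 1472 (without trained replicate 2) to 2440 at 30 days. Changes that crossed 0 were those of Kdr at 10 days (-0.25 to 0.24) and over the mean (-0.00825 to 0.115), Flt1 at 10 days (-0.25 to 0.000377) and 30 days (-0.0681 to 0.0394), Tek at 10 days (-0.388 to 0.0116) and over the mean (-0.0589 to 0.0581), and Flt4 at 2 days (-0.0728 to 0.0675), and none of these had passed.

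Each trained group held 3 muscles. The limma p-values of the main fit rest on the spread within groups, pooled over all 24 muscles, with each muscle counted as independent. No p-value covers variation beyond these 12 animals. The depth of each library is unknown beyond the minimum that the paper gives, and no counting error is given for low genes such as Angpt1, Tek and Nrp2.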
